A study of Mus musculus with 12 samples.

Results

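The genes that encode voltage-gated calcium channel subunits were examined in cultured mouse embryonic fibroblasts under normoxia and hypoxia. The 10 genes were taken by matching the Ensembl identifiers of the count tables to the symbols Cacna1a, Cacna1c, Cacna1d, Cacna1g, Cacna1h, Cacna2d1, Cacnb1, Cacnb2, Cacnb3 and Cacnb4, which gave 10 of 48709 genes. The family was chosen by measured values of the genotype contrast, in which Cacna1c was among the larger rises in TAZKo over WT libraries, so the genotype differences of the 10 genes are given as a description without a test. All 12 libraries came from fibroblasts of the C57BL/6 strain grown in medium with fetal bovine serum. WT and TAZKo cells were each kept in normoxia or in a hypoxia workstation for 24 hours, with 3 samples in each of the 4 groups. Where 4 group values follow each other below, they stand for WT and TAZKo in normoxia and then for WT and TAZKo in hypoxia. TAZKo is the submitters' label for cells without functional tafazzin. This enzyme, the product of Taz, exchanges the acyl chains of cardiolipin, the signature lipid of the inner mitochondrial membrane. The labels give neither the oxygen level, nor the means by which Taz was disrupted, nor whether samples of a group were separate cultures. The p-values below therefore measure the spread between these samples, which may be technical.

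Voltage-gated calcium channels open on depolarisation of the plasma membrane and let calcium enter the cell. The alpha1 subunit forms the pore and the voltage sensor and sets the channel type, while cytoplasmic beta subunits and extracellular alpha2delta subunits help bring the L-type, P/Q-type, N-type and R-type pores to the cell surface and tune their gating. T-type pores can work without these partners. The channels are best known from muscle, neurons and endocrine cells, where the calcium they admit drives contraction, secretion and gene expression through calmodulin and the phosphatase calcineurin.

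Total counts ran from 21039451 to 31204510 per library, so that 3 counts, the level taken as detection, corresponded to 0.0927 to 0.150 CPM, where CPM is the count as a rate of the TMM-scaled library size, TMM being a correction for library composition. Such limits cover counting error only. Taz transcript was not lower in the libraries labelled TAZKo. Its level was 34.6 ± 2.92 CPM (SD, n = 3) in WT and 42.2 ± 3.18 in TAZKo under normoxia, and 25.1 ± 1.49 and 33.8 ± 1.15 under hypoxia. The transcript count thus did not check the genotype, and every direction below refers to the libraries labelled WT and TAZKo. Of 9 fibroblast markers, 7 or 8 were detected in each group, with Col1a1 at 1140 to 4120 CPM but Lum at 0 to 2 counts and Thy1 at 2 to 8 counts per library. Col1a2, counted as detected, stood at only 1.51 to 5.92 CPM. WT normoxia sample 1 stood apart from the other libraries on the third principal component (35.7, against -13.4 to 10.5), and results that rest on it are given with and without it.

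Of the 10 genes, 7 were detected in all 12 libraries and passed the filter on low counts: Cacna1a, Cacna1c, Cacna1g, Cacnb1, Cacnb2, Cacnb3 and Cacnb4. Cacna1d, an L-type pore of neurons, endocrine cells and the sinoatrial node, had 0 to 2 counts per library. Cacna1h, a T-type pore, had 0 to 3 counts, and Cacna2d1, the alpha2delta subunit that binds gabapentin, had 0 to 4 counts. None of these 3 genes reached 3 counts in all samples of any group, so no difference in them was detectable at this depth. The other 16 subunit genes of the mouse genome were read in the same way. Only Cacng7 and Cacng8 among them passed the filter, Cacng3 and Cacng5 had no count in any of the 12 libraries, and 4 of the 16 were detected in at least 1 group. Across all 26 genes, 9 passed the filter and 11 were detected in a group. No gene of the alpha2delta class was detected in any group, and the 4 alpha2delta genes together had 0 to 8 counts per library.

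Levels of different genes were compared per length, as CPM per kb of merged annotated exons. Cacnb3 was the highest subunit gene in every group, with group means of 60.5, 45.4, 56.7 and 49.5 CPM per kb. Cacna1g followed with 15.3, 12.5, 7.56 and 5.77 CPM per kb. Cacng7 came next at 4.11 to 5.73 CPM per kb, and Cacnb1 at 1.82 to 2.98. Cacna1a stood at 0.524 to 1.59 CPM per kb and Cacna1c at 0.192 to 1.24, while Cacnb4 did not exceed 0.17 and Cacnb2 did not exceed 0.0694. With the longest annotated transcript as the length, Cacnb2 in WT hypoxia stood at 0.183 CPM per kb, above Cacnb4 at 0.139, so the order of these 2 genes depends on the length used. Among the 10 members, the genes that passed the filter were thus 1 T-type, 1 P/Q-type and 1 L-type pore gene with 4 beta subunit genes.

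**Figure D1:**
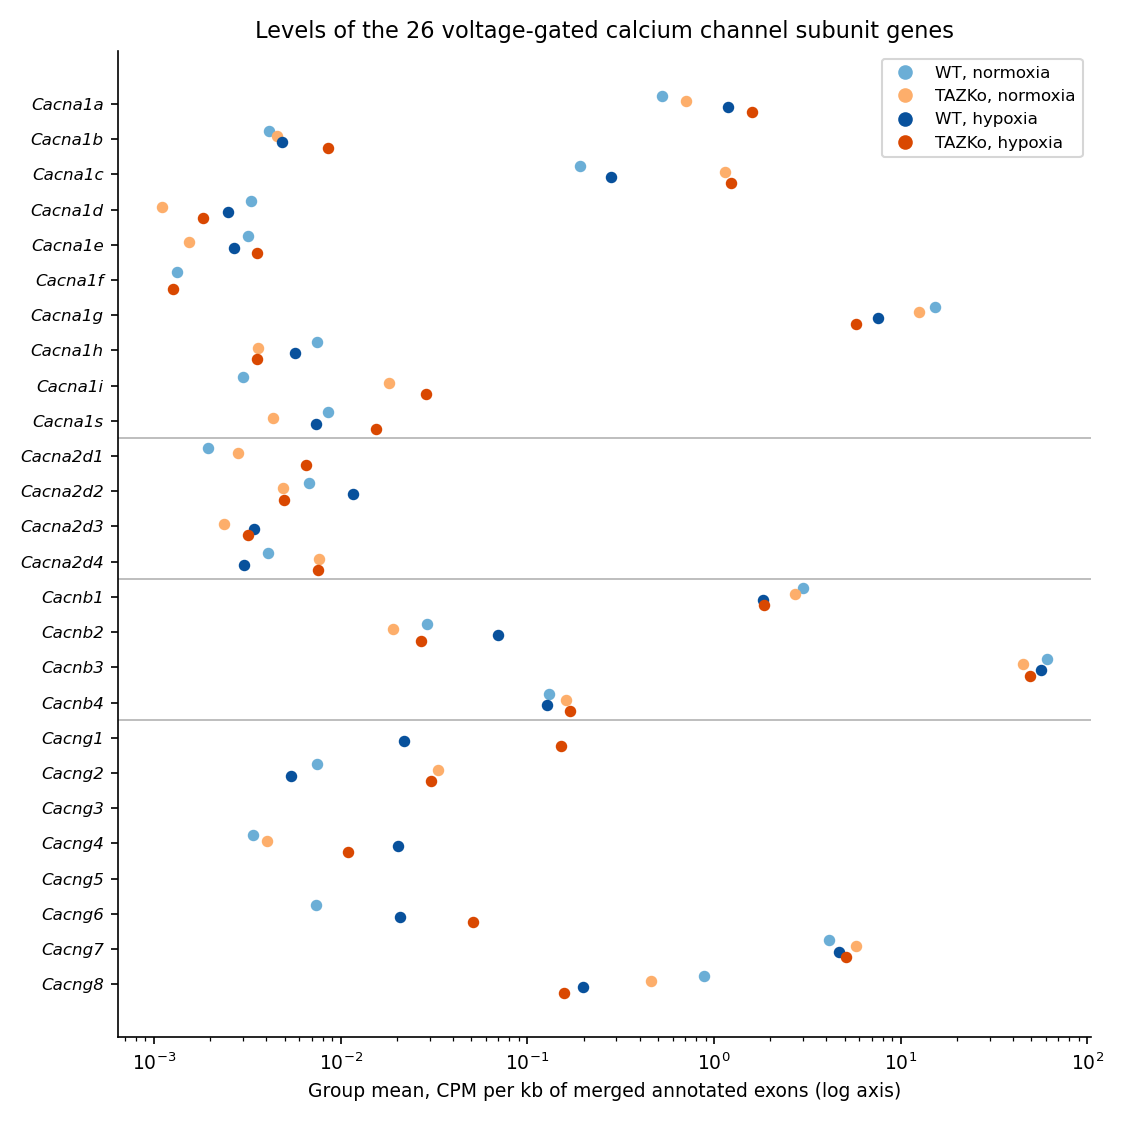
Group means of the 26 subunit genes in CPM per kb of merged annotated exons, on a log axis, with lines between the alpha1, alpha2delta, beta and gamma classes; a group with no count has no point. Cacnb3 and Cacna1g stand highest, and most other genes lie at levels of a few counts per library, where only 11 of the 26 were detected in a group.

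Cacna1g encodes the pore of a T-type channel, which opens at small depolarisations and closes fast, and lies at chr11:94408391-94474198 (minus strand, GRCm38, as all coordinates here). It had 169, 147 and 149 CPM (WT) and 130, 118 and 132 (TAZKo) under normoxia, and 98.6, 61.8 and 69.6 (WT) and 58.5, 60.4 and 56.7 (TAZKo) under hypoxia. Every hypoxia library lay below every normoxia library of either genotype. In WT the gene fell by 1.02 on the log2 scale with hypoxia (SE 0.13, edgeR adjusted p = 2.25e-05), to 0.494 of its normoxia level. In TAZKo it fell by 1.11 (SE 0.131, edgeR adjusted p = 1.56e-05), to 0.462. The sequencing lane was read from the names of the deposited tables. Of each genotype, lane 4 held 1 hypoxia and 2 normoxia libraries, and lane 5 held 2 hypoxia and 1 normoxia libraries. The lane values here and below are therefore descriptions. Within lane 4 the differences were -0.68 (WT) and -1.08 (TAZKo), and within lane 5 they were -1.18 and -1.17. In bulk RNA, fewer cells of a type and less RNA per cell cannot be told apart.

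Cacna1a encodes the pore of the P/Q-type channel, which triggers transmitter release at many synapses, and lies at chr8:84388440-84640246 (plus strand). Its levels were 5.61, 6.75 and 5.57 CPM (WT) and 7.27, 8.31 and 8.62 (TAZKo) under normoxia, and 14.4, 14.8 and 11.7 (WT) and 16.2, 20.4 and 17.8 (TAZKo) under hypoxia. The 4 groups did not overlap, with WT normoxia lowest and TAZKo hypoxia highest. Cacna1a rose 2.28-fold with hypoxia in WT (log2 change 1.19, SE 0.128, edgeR adjusted p = 4.41e-06) and 2.25-fold in TAZKo (log2 change 1.17, SE 0.12, edgeR adjusted p = 4.48e-06). The lane 4 and lane 5 differences were 1.21 and 1.23 in WT and 1.05 and 1.14 in TAZKo. Cacna1a and Cacna1g thus moved in opposite directions in both genotypes.

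Cacna1c encodes the pore of the L-type channel of heart and smooth muscle and lies at chr6:118587240-119196418 (minus strand). It had 4.24, 3.86 and 4.13 CPM in WT normoxia and 7.10, 5.38 and 5.31 in WT hypoxia. In the TAZKo libraries it had 26.4, 22.6 and 23.4 CPM in normoxia and 25.4, 27.9 and 25.8 in hypoxia. All 6 TAZKo libraries lay far above all 6 WT libraries, and within WT every hypoxia library lay above every normoxia library. With hypoxia Cacna1c rose 1.44-fold in WT (log2 change 0.53, SE 0.126, edgeR adjusted p = 0.00305), with lane values of 0.80 and 0.37. In TAZKo its log2 change was 0.13 (95% interval -0.08 to 0.33, edgeR adjusted p = 0.300), and the samples of the 2 conditions overlapped. The genotype difference, which led to the choice of the family and is given without a test, was 2.56 on the log2 scale in normoxia (SE 0.113, 5.91-fold) and 2.16 in hypoxia (SE 0.108, 4.48-fold). The hypoxia responses of Cacna1c use the same libraries, so their p-values are not independent of that choice. No 50-base word of its longest transcript was found in the transcripts of another gene.

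RefSeq lists 3 start sites for Cacna1c, and the bases before each are shown because the gene carried the largest genotype difference of the family. The sequences come from RefSeq on GRCm38.p6 and run 5′ to 3′ along the gene. Each is a window of 250 bases before the start, shortened where an annotated exon of the gene reaches into it. Capitals mark ACGTG, a form of the core that hypoxia-inducible factors bind, or CACGT where the match lies on the other strand. Other forms of the core were not searched. The window of Cacnb1 that holds this motif is shown beside them, since Cacnb1 was also called in the hypoxia comparisons.
Cacna1c start inside the gene body, chr6:118757975-118758224, minus strand: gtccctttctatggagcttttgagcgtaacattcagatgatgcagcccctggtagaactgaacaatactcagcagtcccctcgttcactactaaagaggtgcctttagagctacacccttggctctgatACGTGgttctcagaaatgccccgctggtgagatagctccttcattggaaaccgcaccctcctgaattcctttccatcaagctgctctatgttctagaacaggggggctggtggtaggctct
Cacna1c start at a GC-rich window, chr6:119108574-119108745, minus strand: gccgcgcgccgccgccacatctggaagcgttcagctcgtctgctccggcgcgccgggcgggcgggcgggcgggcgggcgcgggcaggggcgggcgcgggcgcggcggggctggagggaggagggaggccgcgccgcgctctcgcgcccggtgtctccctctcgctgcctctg
Cacna1c most upstream start, chr6:119196419-119196659, minus strand: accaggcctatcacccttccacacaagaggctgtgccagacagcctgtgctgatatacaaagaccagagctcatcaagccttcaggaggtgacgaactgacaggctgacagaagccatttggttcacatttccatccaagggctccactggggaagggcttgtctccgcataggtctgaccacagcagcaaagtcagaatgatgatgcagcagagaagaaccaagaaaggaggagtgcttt
Cacnb1, chr11:98022635-98022877, minus strand: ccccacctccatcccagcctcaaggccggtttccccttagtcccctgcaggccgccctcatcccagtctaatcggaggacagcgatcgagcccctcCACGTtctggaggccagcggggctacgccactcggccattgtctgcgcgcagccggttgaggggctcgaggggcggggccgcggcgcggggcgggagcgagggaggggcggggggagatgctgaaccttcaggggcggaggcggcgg
The motif, searched as ACGTG on both strands, occurred in 1 of these 3 Cacna1c windows and in this Cacnb1 window. Over the 5 tested family members with RefSeq windows, 2 of 12 windows held it, and 5444 of all 32851 windows in the table (16.6%) did. Cacna1a and Cacna1g had no window there, so their starts were not searched. The middle Cacna1c window also lies inside the gene body. It was 82.8% G and C before shortening, against 50.4% and 51.6% in the others. Counts per gene do not say which start was used, and a match is a description of letters, not of a bound site.

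Summed over the 10 alpha1 genes, the level was 16 ± 1.13, 14.4 ± 0.818, 9.06 ± 2.0 and 8.67 ± 0.415 CPM per kb (SD, n = 3). Cacna1g supplied 95.3% ± 0.603, 86.9% ± 0.463, 83.1% ± 3.17 and 66.7% ± 1.59 of it in the 4 groups. Cacna1a supplied 3.28% ± 0.517, 4.93% ± 0.56, 13.5% ± 3.02 and 18.3% ± 1.36. Cacna1c supplied 1.2% ± 0.0565, 7.93% ± 0.515, 3.11% ± 0.185 and 14.3% ± 0.116. T-type transcript was thus the main alpha1 transcript in every library, and its share was lowest in TAZKo hypoxia, where it ran from 65.2% to 68.3%. With the longest annotated transcript as the length, the Cacna1c share in TAZKo hypoxia was 17.7% and the Cacna1g share 61.6%, in the same order of genes. These shares are of transcript, and neither channel protein nor current was measured.

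**Figure D2:**
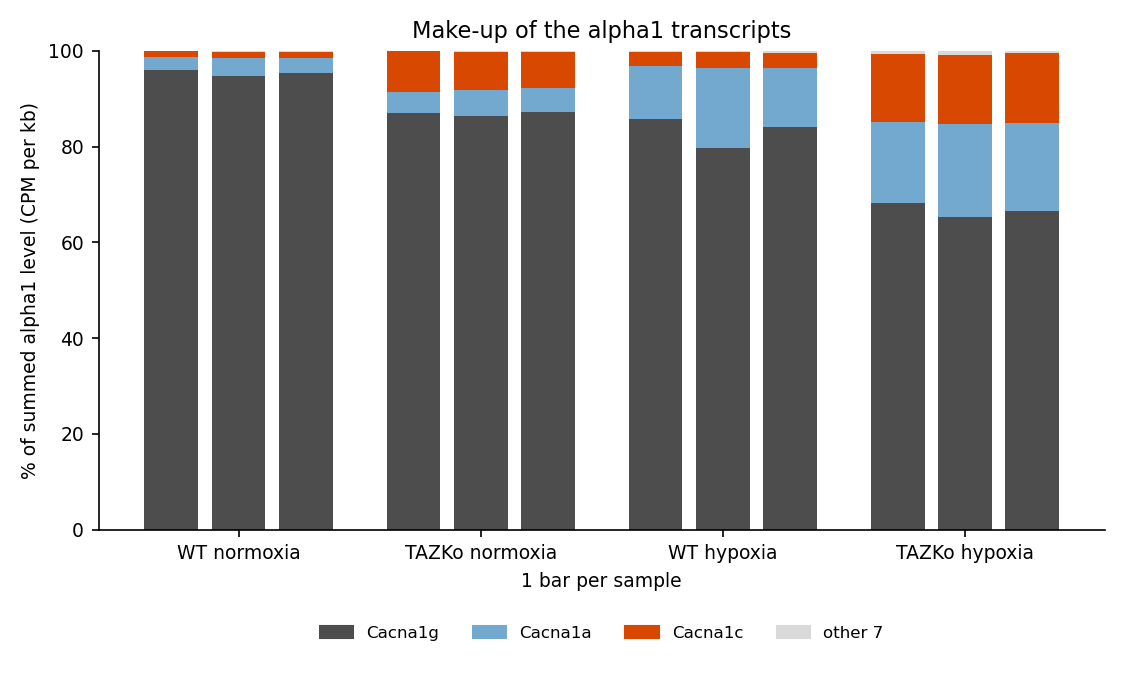
Share of each alpha1 gene in the summed alpha1 level (CPM per kb of merged exons, in percent), 1 bar per sample. The Cacna1g part shrinks from 94.7% to 95.9% in WT normoxia to 65.2% to 68.3% in TAZKo hypoxia, and the Cacna1c part is larger in all 6 TAZKo samples (7.40% to 14.5%) than in the 6 WT samples (1.15% to 3.31%).

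Beta subunits bind the intracellular side of L-type, P/Q-type, N-type and R-type pores. Cacnb3 (chr15:98630840-98644529, plus strand) supplied 94.0% to 96.5% of the summed beta level per length in the group means. It had 281, 221 and 226 CPM (WT) and 189, 179 and 177 (TAZKo) under normoxia, and 269, 203 and 212 (WT) and 204, 194 and 198 (TAZKo) under hypoxia. The 2 WT groups overlapped, and in each of them sample 1 was the highest. Its hypoxia response was -0.09 on the log2 scale in WT (95% interval -0.32 to 0.13, edgeR adjusted p = 0.484) and 0.13 in TAZKo (-0.10 to 0.35, edgeR adjusted p = 0.364). In a fit of the 6 TAZKo libraries alone, which estimates the spread from fewer samples, the second value passed the threshold (0.127, edgeR adjusted p = 0.0309). Without WT normoxia sample 1 the WT value was 0.025.

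Cacnb1, the beta subunit of skeletal muscle channels that is also made in other tissues, lies at chr11:98001508-98023034 (minus strand). It had 14.6, 13.3 and 12.6 CPM (WT) and 12.7, 11.9 and 12.3 (TAZKo) under normoxia, and 8.95, 7.80 and 7.93 (WT) and 7.28, 8.36 and 9.68 (TAZKo) under hypoxia. All 6 hypoxia libraries lay below all 6 normoxia libraries, and the genotypes overlapped in both conditions. With hypoxia the WT level fell by 0.72 in log2 units (SE 0.107, edgeR adjusted p = 8.43e-05) and the TAZKo level fell by 0.53 (SE 0.106, edgeR adjusted p = 0.00108). Lane 4 and lane 5 values were -0.64 and -0.67 in WT and -0.75 and -0.44 in TAZKo.

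Cacnb2, the main beta subunit of the heart, lies at chr2:14603088-14987908 (plus strand) and was near the limit of detection. It had 11, 7 and 10 counts (WT) and 6, 8 and 5 (TAZKo) under normoxia, and 28, 14 and 20 (WT) and 4, 12 and 13 (TAZKo) under hypoxia. The WT hypoxia libraries lay above all the other 9 libraries, while the TAZKo conditions overlapped. In WT it rose 2.32-fold (log2 change 1.21, SE 0.381, edgeR adjusted p = 0.0164). This call was lost without WT normoxia sample 2 (1.09, edgeR adjusted p = 0.0526), without WT normoxia sample 3 (1.11, 0.0581) and without WT hypoxia sample 1 (0.82, 0.0781). In TAZKo its log2 change was 0.60 (95% interval -0.43 to 1.63, edgeR adjusted p = 0.338), with lane values of -0.46 and 1.13. The 8 tested genes within 1 Mb of Cacnb2 had a median hypoxia response of 0.99 in WT and 0.93 in TAZKo.

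Cacnb4, a beta subunit best known from the brain, lies at chr2:52428320-52676831 (minus strand). It had 9, 36 and 42 counts (WT) and 28, 34 and 55 (TAZKo) under normoxia, and 20, 24 and 37 (WT) and 31, 43 and 45 (TAZKo) under hypoxia. WT normoxia sample 1 was the lowest of the 12 libraries, at 0.398 CPM against 1.0 to 1.70 in the others. The hypoxia response was -0.03 in WT (95% interval -0.78 to 0.71, edgeR adjusted p = 0.944) and 0.05 in TAZKo (-0.62 to 0.73, edgeR adjusted p = 0.908). Without WT normoxia sample 1 the WT response was -0.42 (edgeR adjusted p = 0.121). Its longest transcript shares 16.55% of its 50-base words with transcripts of other genes, so part of its counts depends on how such reads were assigned. The kit does not mark strand, and the non-coding gene A430018G15Rik, with 1 to 6 counts per library, overlaps 1433 bases of Cacnb4 exons on the opposite strand, so reads from the shared bases cannot be assigned to either gene.

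**Figure D3:**
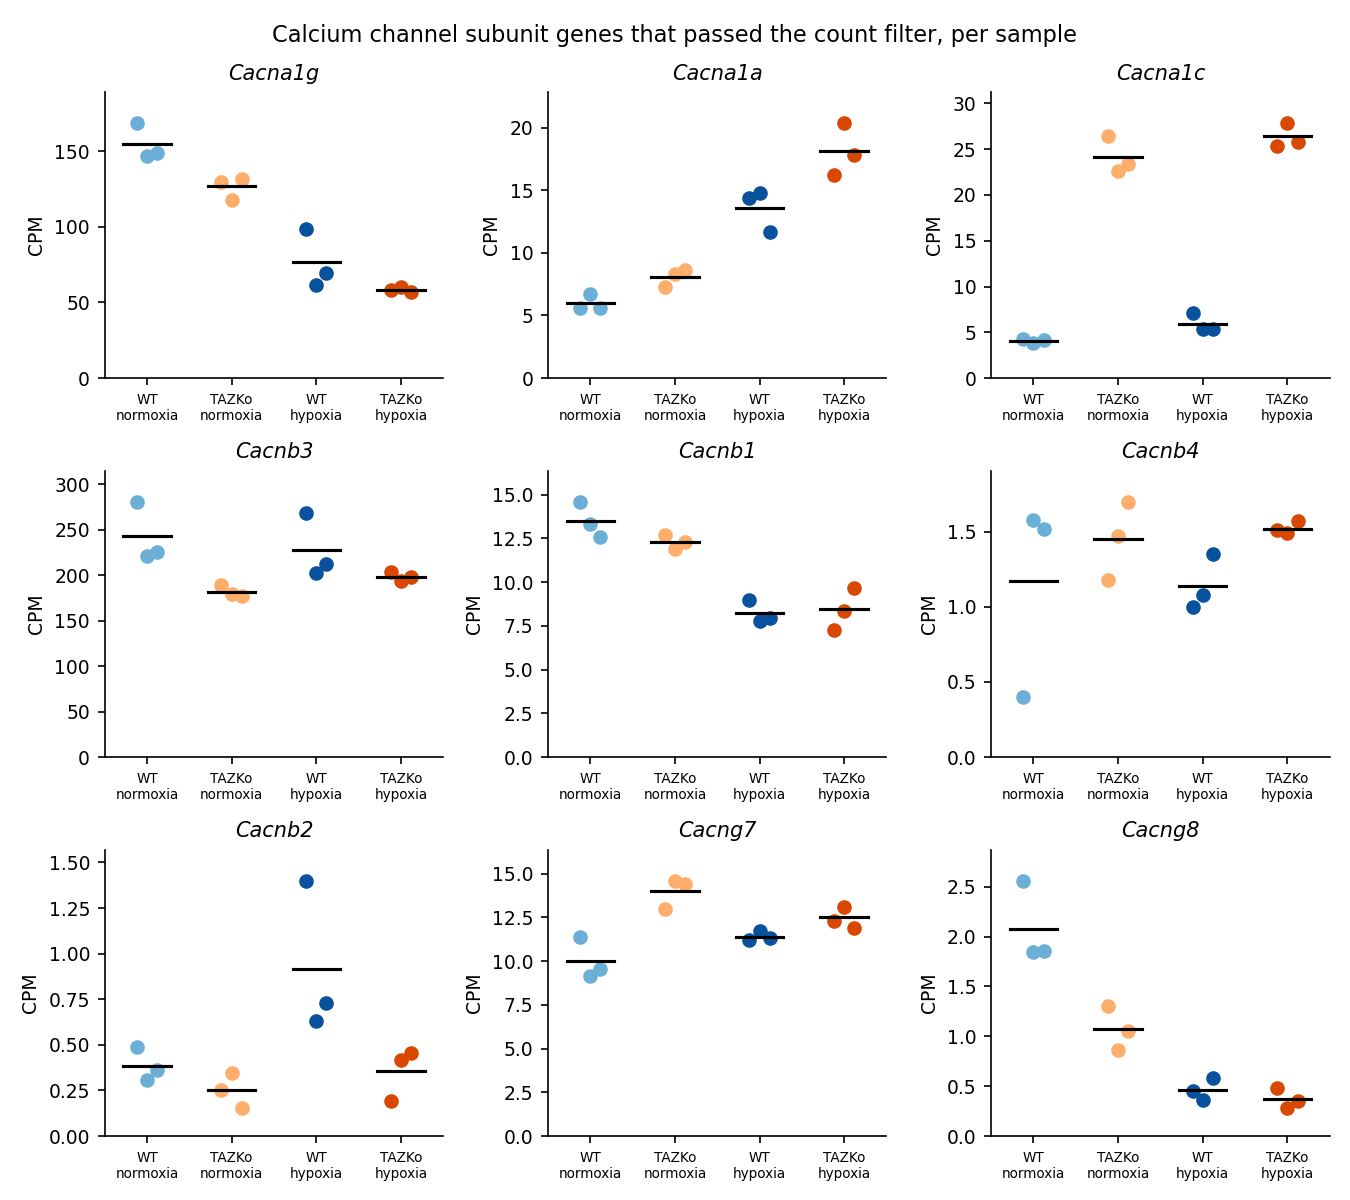
CPM of the 9 subunit genes that passed the count filter, 1 point per sample and a line at the group mean (n = 3), with the vertical axis from 0 in each panel. Cacna1c separates the genotypes, Cacna1a and Cacna1g separate the conditions in opposite directions, and the single low point of Cacnb4 is WT normoxia sample 1.

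Genes of the gamma class are named for a skeletal muscle channel subunit, and several of them, Cacng7 and Cacng8 included, are known as auxiliary subunits of AMPA-type glutamate receptors. Cacng8 had 2.56, 1.84 and 1.85 CPM (WT) and 1.30, 0.866 and 1.05 (TAZKo) under normoxia, and 0.450, 0.359 and 0.582 (WT) and 0.486, 0.277 and 0.348 (TAZKo) under hypoxia. Its normoxia libraries lay above its hypoxia libraries in both genotypes. With hypoxia the WT level fell by 2.13 in log2 units (SE 0.259, edgeR adjusted p = 1.39e-05) and the TAZKo level fell by 1.56 (SE 0.292, edgeR adjusted p = 0.000714), the widest hypoxia responses of the 9 tested subunit genes. Cacng8 had only 9, 8 and 16 counts (WT) and 10, 8 and 10 (TAZKo) under hypoxia. The size of these falls thus rests on few reads. Cacng7 means were 10.0, 14.0, 11.4 and 12.5 CPM. Its response was 0.19 in WT (95% interval -0.01 to 0.39, edgeR adjusted p = 0.110) and -0.17 in TAZKo (-0.36 to 0.03, edgeR adjusted p = 0.154). Without WT normoxia sample 1 its WT response was 0.287 and passed the threshold (edgeR adjusted p = 0.0123).

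A few further subunit genes showed counts mainly in TAZKo libraries, at the limit of detection. Cacna1i, a T-type pore, had 2, 4 and 9 counts in TAZKo normoxia and 6, 8 and 8 in TAZKo hypoxia, against 2, 0 and 0 (normoxia) and 0, 0 and 0 (hypoxia) in WT. Cacng2, known as stargazin, had 6, 4 and 4 counts in TAZKo normoxia and 4, 5 and 4 in TAZKo hypoxia, against 0, 2 and 1 (normoxia) and 0, 2 and 0 (hypoxia) in WT. Cacng1, the gamma subunit of skeletal muscle, had no count in any normoxia library and, under hypoxia, 0, 1 and 1 counts in WT and 6, 2 and 6 in TAZKo. These genes did not pass the filter and were not tested.

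Read over the family, hypoxia in WT raised 3 of the 7 tested genes (Cacna1a, Cacna1c and Cacnb2) and lowered 2 (Cacna1g and Cacnb1). In that comparison 51.0% of all 14408 tested genes were called, 26.0% higher and 25.0% lower, and the median log2 change was -0.03 for the 7 genes and 0.009 for all genes. Without WT normoxia sample 1 the count was again 5. In TAZKo 1 gene rose (Cacna1a) and 2 fell (Cacna1g and Cacnb1), where 43.8% of all genes were called (22.2% higher and 21.6% lower), with medians of 0.13 and -0.009. With library size alone as the scaling, 2966 genes were called higher and 4820 lower in WT, against 3750 and 3605 with TMM, and in TAZKo 2470 and 4394, against 3198 and 3111. The family counts were the same under both scalings. The 3 of 7 called in TAZKo were near the share of all genes, and the 5 of 7 called in WT were above it, a difference that was not tested. The hypoxia comparisons use the same libraries as the genotype comparisons, so the call of Cacna1c in WT is not independent of its choice.

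**Figure D4:**
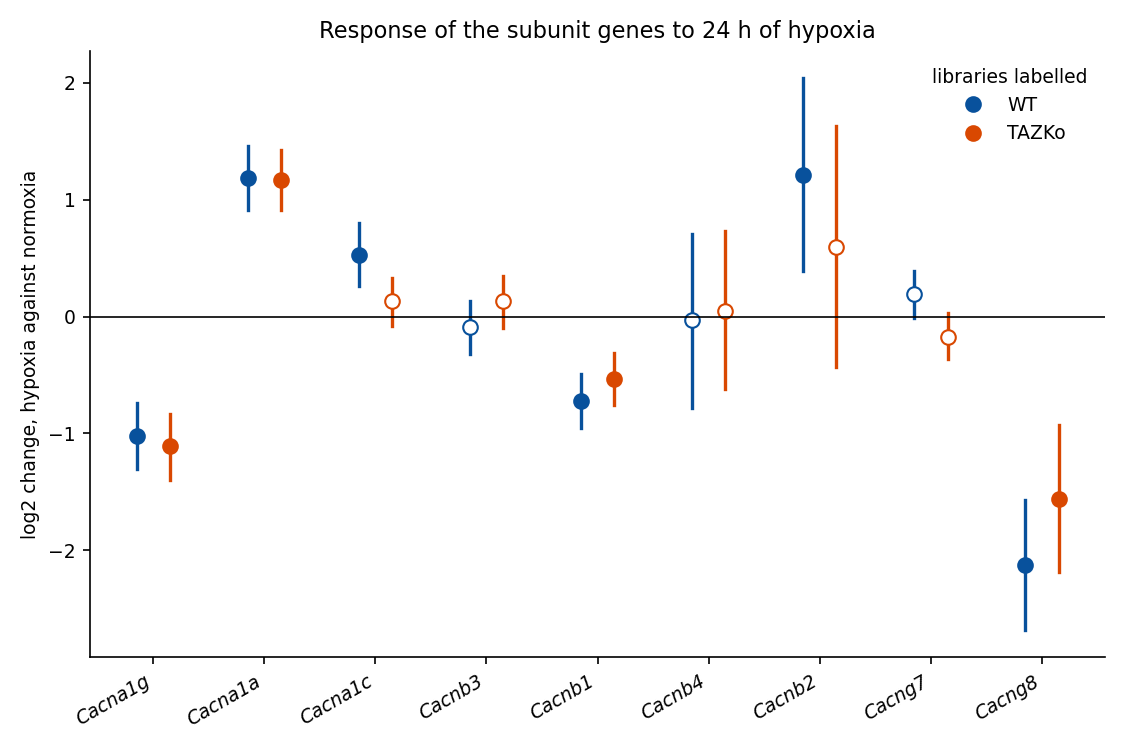
Fitted log2 change with hypoxia for the 9 tested subunit genes in the libraries labelled WT and TAZKo, with 95% intervals; filled points passed an edgeR adjusted p of 0.05. Cacna1a lies above 0 (1.19 and 1.17) and Cacna1g, Cacnb1 and Cacng8 lie below 0 in both genotypes, while the intervals of Cacnb2 and Cacnb4 are the widest among the beta genes.

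Whether hypoxia acted differently in the 2 genotypes was tested as an interaction. None of the 7 family members passed in edgeR or in DESeq2, where edgeR called 2.43% of all genes. Without adjustment, 1 member (Cacna1c) and 2273 genes overall had p under 0.05. For Cacna1c the TAZKo response minus the WT response was -0.40 (95% interval -0.74 to -0.06, edgeR adjusted p = 0.224). It was not shown to respond differently, although the WT response alone passed the threshold. This comparison also uses the libraries of the genotype difference for which Cacna1c was put forward. The intervals of the other members reached from -0.39 to 0.36 for Cacna1a, from -0.49 to 0.30 for Cacna1g, from -0.14 to 0.51 for Cacnb1 and from -0.10 to 0.54 for Cacnb3. Those of Cacnb2 (-1.97 to 0.75) and Cacnb4 (-0.92 to 1.10) left more room. For Cacng7 the interaction was -0.36 (edgeR adjusted p = 0.191), and it was -0.454 without WT normoxia sample 1 (edgeR adjusted p = 0.0390).

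The genotype differences of the other members were smaller than that of Cacna1c and are given as TAZKo minus WT on the log2 scale. In normoxia they were 0.44 for Cacna1a (SE 0.131), -0.29 for Cacna1g (SE 0.128), -0.14 for Cacnb1 (SE 0.102), -0.66 for Cacnb2 (SE 0.483), -0.42 for Cacnb3 (SE 0.105) and 0.31 for Cacnb4 (SE 0.328). In hypoxia they were 0.42 (SE 0.116), -0.39 (SE 0.131), 0.05 (SE 0.11), -1.27 (SE 0.378), -0.20 (SE 0.105) and 0.40 (SE 0.331) in the same order. Single libraries carried part of several of these values. Without WT hypoxia sample 1 the hypoxia difference was -0.167 for Cacna1g and -0.061 for Cacnb3. In normoxia Cacnb2 differed by -0.355 without TAZKo normoxia sample 3. Its hypoxia difference ran from -1.47 to -0.878 with each library left out in turn. Within lane 4, with 1 library of each genotype, that difference was -2.43, and within lane 5, with 2 of each, it was -0.56. With each library left out in turn, Cacnb1 ran from -0.22 to -0.075 in normoxia and from -0.063 to 0.136 in hypoxia. Cacnb4 in normoxia ran from -0.076, without WT normoxia sample 1, to 0.551. Cacnb3 in normoxia ran from -0.5 to -0.298, the latter without WT normoxia sample 1.

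Genes around Cacna1c were read in the same contrast. Within 1 Mb of the gene body, 20 other genes were tested, with a median genotype difference of -0.05 in normoxia and -0.15 in hypoxia. Cacna1c was put forward for its value in this contrast, so its place above all 20 is a description of that choice. The gene whose start is nearest, Dcp1b, an mRNA decapping factor, lay 21.2 kb from the Cacna1c start and differed by 0.47 and 0.60. The lowest neighbour was Wnt5b, a secreted Wnt ligand, at -3.11 and -3.54. Around Cacna1a, none of 69 tested neighbours exceeded its hypoxia response in either genotype.

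**Figure D5:**
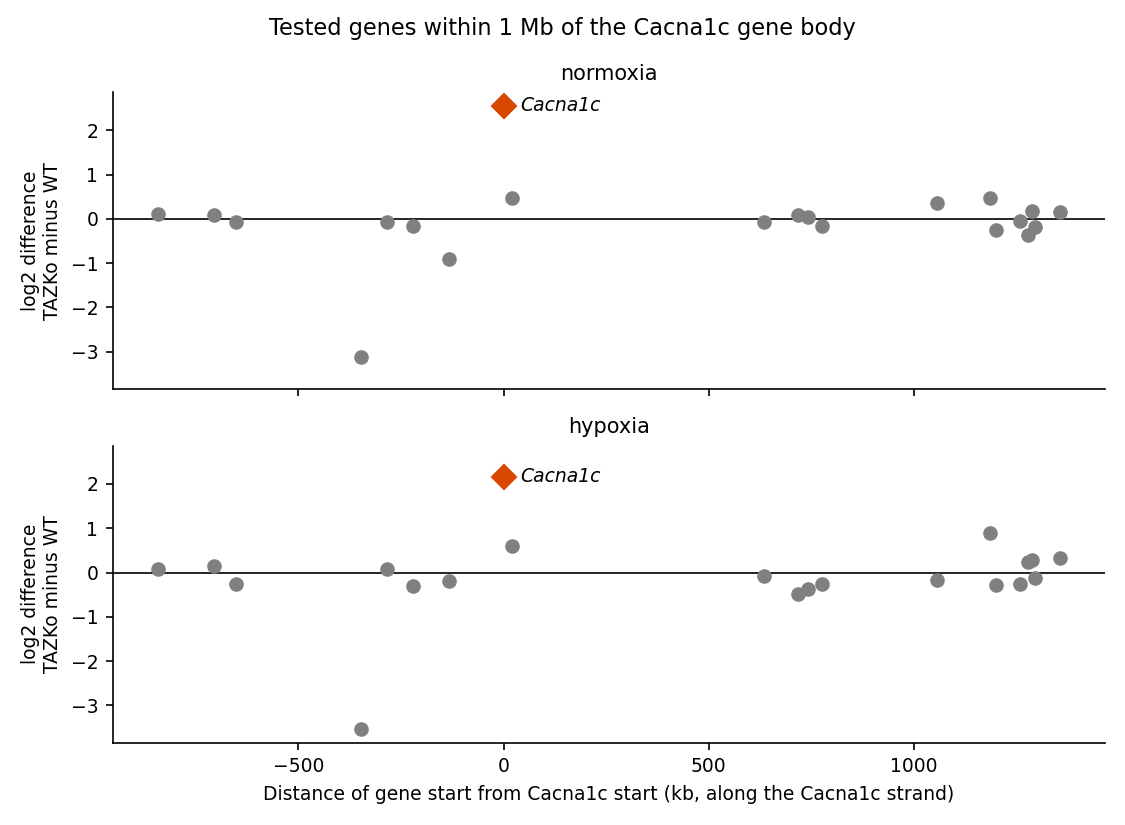
Genotype difference (log2, TAZKo minus WT) of the 21 tested genes at the Cacna1c locus against the distance of their starts from the Cacna1c start in kb, along the Cacna1c strand, in normoxia (top) and hypoxia (bottom). Cacna1c, chosen for this contrast, is at 2.56 and 2.16, and the highest values of the 20 neighbours are 0.47 and 0.90.

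The genes whose levels tracked Cacna1c most closely over the 12 samples were Srgap3, Chst1 and Specc1l, with Pearson correlations of log2 CPM of 0.991, 0.990 and 0.990 among 9437 genes with a mean of at least 10 CPM. This is a description without a p, and the 12 points share the same 4 groups. Srgap3 had group means of 5.01 ± 0.189, 21.2 ± 0.242, 7.96 ± 0.905 and 26.0 ± 1.84 CPM. It lies on chromosome 6, as does Cacna1c. Chst1, a carbohydrate sulfotransferase, had 5.75 ± 0.658, 20.8 ± 0.228, 6.40 ± 0.654 and 23.7 ± 0.506 CPM. Specc1l, a cytoskeletal linker, differed much less in size, with 141 ± 4.80, 185 ± 1.07, 150 ± 2.10 and 187 ± 4.01 CPM.

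Proteins that bind or modify the channels were followed as a list of 21 genes, of which 18 were tested. With hypoxia 5 rose and 4 fell in WT, and 4 rose and 5 fell in TAZKo, which is 9 of 18 in each, where 51.0% (WT) and 43.8% (TAZKo) of all genes were called. The 4 that fell in WT were 2 without WT hypoxia sample 3, and the 5 that fell in TAZKo were 3 without TAZKo normoxia sample 3. In fits of the 6 libraries compared, 2 fell in WT and 8 in TAZKo. The list medians were -0.03 and -0.17, against 0.009 and -0.009 for all genes. Gem, a small GTPase that binds beta subunits and inhibits the channel, rose in WT, from 2.82 ± 0.247 to 10.1 ± 0.492 CPM (log2 change 1.83, SE 0.134, edgeR adjusted p = 1.21e-07). In TAZKo it rose from 3.47 ± 0.606 to 7.19 ± 0.808 CPM (log2 change 1.06, SE 0.132, edgeR adjusted p = 2.6e-05). Ahnak, a large scaffold protein that binds beta subunits, rose with hypoxia by 1.0 on the log2 scale among WT libraries (edgeR adjusted p = 3.23e-07) and by 0.84 among TAZKo libraries (edgeR adjusted p = 2.65e-06). Camk2d, a calcium/calmodulin-dependent kinase subunit, rose by 0.94 in WT (edgeR adjusted p = 4.14e-06). Cabp1, a calcium-binding protein that competes with calmodulin on the pore, fell by 1.46 in TAZKo (SE 0.137, edgeR adjusted p = 1.84e-06), from 8.63 ± 0.515 to 3.16 ± 0.688 CPM.

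Between genotypes the same list had 5 genes higher and 3 lower in TAZKo in normoxia, and 2 higher and 4 lower in hypoxia, where 30.4% and 32.8% of all genes were called. In normoxia the widest differences were Cabp1 (1.09, edgeR adjusted p = 3.47e-05), Camk2d (0.75, edgeR adjusted p = 7.86e-05) and Akap5 (0.69, edgeR adjusted p = 0.00016), the last an anchoring protein that tethers protein kinase A and calcineurin to the L-type channel. Akap5 stood at 71.7 ± 9.20 CPM in WT and 116 ± 11.2 in TAZKo. In hypoxia Rrad, another GTPase of the Gem family, was lower by -0.68 (edgeR adjusted p = 0.00115) and Gem by -0.48 (edgeR adjusted p = 0.00773). Stac2, an adaptor that binds L-type pores, was higher by 0.55 (edgeR adjusted p = 0.0248), a call lost without WT hypoxia sample 2 or 3 or without TAZKo hypoxia sample 2 or 3 (edgeR adjusted p from 0.0654 to 0.128). The count of 2 higher in hypoxia was 1 without any of these 4 libraries and 5 without WT normoxia sample 1, it was 4 in a fit of the 6 hypoxia libraries, and the count of 3 lower in normoxia was 5 without WT normoxia sample 3.

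Other calcium transport genes (store-operated entry, release channels, pumps and exchangers) numbered 22, with 14 tested. Hypoxia raised 5 and lowered 6 in WT and raised 5 and lowered 4 in TAZKo, with list medians of -0.15 and 0.03 against 0.009 and -0.009 for all genes. These are 11 and 9 of 14, beside 51.0% and 43.8% of all genes. Orai2, a store-operated channel, went in WT from 63.7 ± 3.99 to 30.8 ± 3.99 CPM (log2 change -1.05, SE 0.0853, edgeR adjusted p = 3.09e-07). Itpr1, a release channel of the endoplasmic reticulum, went in WT from 105 ± 6.70 to 57.3 ± 3.92 CPM (log2 change -0.87, SE 0.0719, edgeR adjusted p = 3.48e-07). The TAZKo means of both were also lower in hypoxia, at 55.3 against 88.1 CPM for Orai2 and 61.2 against 106 CPM for Itpr1. Ryr1, the release channel of skeletal muscle, fell by 1.14 among WT libraries (edgeR adjusted p = 0.00439) and fell by 0.99 among TAZKo libraries (edgeR adjusted p = 0.026), from means of 2.17 and 1.16 CPM. The TAZKo call was lost without TAZKo normoxia sample 1 or 3 or without TAZKo hypoxia sample 1 or 2 (edgeR adjusted p from 0.0598 to 0.114). Atp2b4, a plasma membrane calcium pump, had group means of 70, 29.1, 42.1 and 11.4 CPM. Atp2a3, a pump of the endoplasmic reticulum, had 3.53, 6.10, 3.77 and 14.0 CPM. Between genotypes 5 genes were higher and 3 lower in normoxia, and 8 were higher and 2 lower in hypoxia, beside 30.4% and 32.8% of all genes called in the 2 conditions. The count of 2 was 1 without sample 1 of either genotype in hypoxia or without TAZKo hypoxia sample 3. Itpr2, another release channel, was higher by 1.2 in TAZKo in normoxia (edgeR adjusted p = 3.81e-06).

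Of 13 genes of the calcineurin-NFAT pathway, which turns calcium entry into transcription, 12 were tested. In WT 6 rose with hypoxia and 1 fell, and in TAZKo 2 rose and 1 fell, with list medians of 0.25 and 0.14 against 0.009 and -0.009 for all genes. These are 7 and 3 of 12, beside 51.0% and 43.8% of all genes. Without WT normoxia sample 1 the counts were 6 and 2 in WT and 3 and 2 in TAZKo, and without WT hypoxia sample 3 none fell in WT. Over the alternatives, 1 to 3 rose and 1 to 2 fell in TAZKo. None of the 12 passed the interaction in edgeR, so a different response of the genotypes was not shown. Nfatc2, a transcription factor of the pathway, rose from 0.539 ± 0.23 to 1.1 ± 0.102 CPM in WT (edgeR adjusted p = 0.0139, but 0.0564 without WT normoxia sample 2 and 0.0631 without sample 3). Rcan2, an inhibitor of calcineurin, rose from 1.2 ± 0.198 to 2.29 ± 0.509 CPM in WT (edgeR adjusted p = 0.0181, but 0.0661 without WT hypoxia sample 1). In TAZKo, Nfatc1 rose by 0.28 (edgeR adjusted p = 0.00287) and Rcan3 fell by 0.27 (edgeR adjusted p = 0.00246). Their WT means moved in the same directions, from 19.6 to 26.9 CPM for Nfatc1 and from 70.4 to 62.7 CPM for Rcan3. Between genotypes, 2 of the 12 were higher and 1 lower in TAZKo in normoxia, and 0 were higher and 2 lower in hypoxia. Of all genes, 30.4% and 32.8% were called. The 2 higher were Nfatc1 (0.3, edgeR adjusted p = 0.00304) and Rcan3 (0.19, edgeR adjusted p = 0.0251). The Rcan3 call was lost without WT normoxia sample 2 or TAZKo normoxia sample 1 or 3. Without WT normoxia sample 1, 1 gene was higher in hypoxia. Rcan2 was lower in TAZKo by -2.85 in normoxia (edgeR adjusted p = 0.000316) and by -2.45 in hypoxia (edgeR adjusted p = 0.000111). Its TAZKo levels were near the limit of detection, at 0.126, 0.13 and 0.216 CPM in normoxia and 0.437, 0.138 and 0.662 in hypoxia. The size of these differences thus rests on few reads. Rcan1, also a calcineurin inhibitor, was lower in TAZKo in hypoxia, at 35.7 ± 1.68 against 47.5 ± 1.02 CPM (edgeR adjusted p = 0.000253).

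Summed levels of markers of other cell types differed between the groups, but most sums were carried by 1 or 2 genes. The summed level of 12 striated muscle markers was 5.22 to 6.36, 12 to 13.3, 11.5 to 13.8 and 18.3 to 19.3 CPM in the 4 groups, and 3 or 4 of the 12 were detected in a group. Most of this sum was Tnnt2 and Des, and Myh6, the cardiac myosin heavy chain, had 0 or 1 count in every library. The 6 smooth muscle markers summed to 180 to 210, 131 to 142, 142 to 172 and 106 to 111 CPM. The 9 neuronal markers summed to 37.5 to 44.6, 27.5 to 33.1, 49.9 to 65.6 and 39.3 to 42.5 CPM, and 4 to 6 were detected. Tubb3 alone stood at 21.8 to 60.4 CPM among them, and Smtn at 83.6 to 175 CPM among the smooth muscle markers. With hypoxia 1 of 4 tested neuronal markers rose and none fell in either genotype by the edgeR test. Of 4 tested smooth muscle markers, 2 rose in each genotype, and 2 (WT) and 1 (TAZKo) fell. These counts stand beside 51.0% (WT) and 43.8% (TAZKo) of all genes called. Between genotypes, TAZKo had 2 of 3 tested striated muscle markers higher and 0 lower in both conditions. Smooth muscle markers had 2 (normoxia) and 3 (hypoxia) of 4 lower and 0 higher. Neuronal markers had 2 of 4 and endothelial markers 2 of 3 lower in both conditions, each with 1 higher in normoxia. Leukocyte markers had 1 of 2 lower in both, and epithelial markers 2 of 2 lower in normoxia. Of all genes, 30.4% and 32.8% were called. The 4 endothelial markers summed to 18 to 21, 5.63 to 7.44, 14.5 to 20.4 and 3.84 to 5.05 CPM. The 4 leukocyte markers ran from 4.42 to 13.8 CPM with Ptprc at 0 or 1 count, and the 4 epithelial markers from 97.9 to 152 CPM, of which Krt18 made up 97.2 to 150. The part of other cell types in the levels of Cacna1c and Cacna1a was not tested.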

How the data were processed

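Per the labels, RNA libraries of 12 fibroblast samples were made with a TruSeq RNA v2 kit. The authors deposited whole-number read counts per Ensembl gene, without normalization. The build is mm10, per the submitters' processing notes; the aligner, counting program and annotation release are not given in the sources used here. Symbols and lengths came from GENCODE M21 by identifier (48349 of 48709 matched). Counts were filtered with filterByExpr (14408 genes kept), scaled by TMM and fitted with the edgeR 4.0.16 quasi-likelihood test (R 4.3.3, limma 3.58.1) over all 12 samples; p-values were Benjamini-Hochberg adjusted over all genes at 0.05. The fit was tested on simulated data. Named genes were the family, at most 3 genes per list and contrast with the widest called change at a mean of at least 1 CPM, the 3 genes most correlated with Cacna1c, and Taz. The members and lists were chosen with earlier results of these data known. Same-numbered samples deviated together in the WT hypoxia comparison (correlations 0.37, 0.20, 0.15) and in the normoxia genotype comparison (0.35, 0.15, 0.23), but not in TAZKo hypoxia (0.03, -0.02, 0.09) or the hypoxia genotype comparison (0.06, -0.02, 0.12). Alternatives were 3 other scalings, DESeq2 1.42.0, 2 other filters, a replicate block, lane as a covariate, fewer samples and another transcript length.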

Additional observations from a re-analysis of the deposited data

Results flagged for a closer look

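The hypoxia response differed between the genotypes (edgeR interaction test, TAZKo minus WT on the log2 scale) for 4 genes of the calcium lists, in which 18, 14 and 12 genes were tested, and for none of the 7 tested channel subunits, where 2.43% of all genes were called. Atp2b4, a plasma membrane calcium pump, changed by -0.74 in WT and -1.35 in TAZKo, a difference of -0.62 (SE 0.113, edgeR adjusted p = 0.0113). Cabp1, a calmodulin-like regulator of the pore, changed by -0.28 and -1.46, a difference of -1.19 (edgeR adjusted p = 0.00702). Camk2d, a kinase subunit activated by calcium and calmodulin, changed by 0.94 and 0.37, a difference of -0.58 (edgeR adjusted p = 0.0474). Atp2a3, a pump of the endoplasmic reticulum, changed by 0.13 and 1.2, a difference of 1.07 (edgeR adjusted p = 0.0320). The call of Camk2d was lost with upper quartile scaling, at a mean of at least 1 CPM and without any of 9 of the 12 libraries (edgeR adjusted p from 0.0502 to 0.138), and that of Atp2a3 without any of 8 of the 12 libraries (0.0541 to 0.0919).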

How the results depend on the processing

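Each subunit gene called with hypoxia was called under every alternative that tested it, except Cacnb2, lost without 1 of 3 WT libraries as given with its values and not tested at a mean of at least 1 CPM. No called value changed sign. Leaving out each library gave 4 to 5 members called for hypoxia in WT, 3 for hypoxia in TAZKo and 0 for the interaction. The replicate block changed no call of a member with hypoxia; it moved the interaction from 350 to 639 genes. Over all genes the interaction gave 727 without a filter, 578 with DESeq2 and 164 to 617 with 1 library left out; the cause was not tested. Counts of members called were not run for the genotype comparisons, which are a description for the members. Library size alone moved the median hypoxia change by -0.106 in WT and made Cacng7 pass in TAZKo (-0.261, edgeR adjusted p = 0.031). The same alternatives were applied to the calcium lists and their named genes after seeing the data. Longest transcripts in place of merged exons raised Cacna1c to 0.31, 1.83, 0.45 and 2 CPM per kb in the 4 groups, and Cacnb2 to 0.0765, 0.0499, 0.183 and 0.0704. Depth limits Cacnb2, Cacnb4, Cacng8 in hypoxia and all undetected subunits.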
